A study of Mus musculus with 8 samples.

Results

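The genes described here encode the simple-epithelial keratins Krt8, Krt18 and Krt19 and the desmosomal proteins Dsp, Dsg2, Dsc2, Pkp2 and Jup. Their transcripts were measured in mouse embryonic stem (ES) cells with and without the histone demethylase RBP2. The members were all probe sets whose single gene symbol in the platform's annotation was 1 of these 8 names, which gave 21 of the 45101 probe sets on the array. All 8 genes passed the filter on dim genes, also on their mean with LIF and their mean without it, and were tested among 10916 genes. There were 8 arrays in 4 groups of 2. Rbp2f/f ES cells, the notation for 2 conditional (floxed) alleles, were profiled in the presence of leukemia inhibitory factor (LIF) and after 6 days in its absence. Rbp2-/- ES cells, which carry the deleted gene, were profiled in both conditions. The labels do not say whether the medium differed in anything but LIF. RBP2 was read as retinoblastoma-binding protein 2, the histone H3 lysine 4 demethylase now named Kdm5a. The labels call the samples of a group biological replicates without naming clones, cultures or the means of deletion. The p-values therefore measure the spread between these arrays, part of which may be technical.

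Keratins form the intermediate filaments of epithelial cells as obligate pairs of a type II chain, such as keratin 8, and a type I chain, such as keratin 18 or 19. Keratins 8, 18 and 19 are the chains of simple epithelia and are among the earliest keratins of the mouse embryo, in trophectoderm and later in extraembryonic endoderm. At desmosomes the filaments are tied to the membrane: desmoglein and desmocollin cadherins, here Dsg2 and Dsc2, bridge the neighbouring cells, plakoglobin (Jup) and plakophilin 2 (Pkp2) bind their tails, and desmoplakin (Dsp) links this plaque to the keratins. LIF holds mouse ES cells in an undifferentiated state, and its withdrawal lets them differentiate.

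Median intensity over all probe sets was 15.7 to 24.6 per array. Replicate 2 of Rbp2-/- with LIF was dim and lay at a median of -0.46 on the log2 scale from the mean of the arrays over the tested genes, against -0.05 to 0.19 for the others. This displaced the median difference of all genes to -0.28 in the comparison of genotypes with LIF, 0.39 in withdrawal in Rbp2-/- and 0.31 in the interaction, while it was 0.07 for withdrawal in Rbp2f/f and 0.02 for the genotypes without LIF. Log2 differences are therefore given as log2(intensity + 16) relative to the all-gene median with the standard error (SE) of the limma fit, and understate the change of dim genes. Their p-values test the difference before the median was subtracted. Kdm5a, the targeted gene, stood at 128.2 and 167.2 for Rbp2f/f against 31.2 and 30.6 for Rbp2-/- with LIF, and at 225.7 and 246.6 against 100 and 80.2 after withdrawal. At this brightest of its 6 probe sets the genotype difference with LIF was -1.51 ± 0.25 (limma adjusted p = 0.022, or 0.078 after quantile normalization). Without LIF it was -1.28 ± 0.25 and did not pass (adjusted p = 0.091). On withdrawal in Rbp2-/- Kdm5a rose by 0.78 ± 0.25 (adjusted p = 0.0051). The 7 pluripotency markers fixed as a check of cell identity all fell on withdrawal in both genotypes, with median log2 differences of -2.49 in Rbp2f/f and -2.89 in Rbp2-/-.

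Krt8, the type II keratin of simple epithelia, had intensities with LIF of 3400.6 and 1439.2 on the Rbp2f/f arrays (replicates 1 and 2) and of 2296.4 and 3300.8 on the Rbp2-/- arrays. Without LIF these were 5774 and 7539.1 for Rbp2f/f, and 4703.2 and 5781.5 for Rbp2-/-. All arrays without LIF were above all arrays with LIF, and within a medium the genotypes overlapped. Krt18, its type I partner, had intensities with LIF of 3925.2 and 1907 for Rbp2f/f, and of 2907.1 and 3502.5 for Rbp2-/-. Without LIF Krt18 stood at 7868 and 8679.9 for Rbp2f/f, and at 6239.4 and 7297.9 for Rbp2-/-. It followed Krt8, except that the genotypes no longer overlapped without LIF. Krt8 and Krt18 are direct neighbours on chromosome 15 in the RefSeq gene table of GRCm38.p6, which was used for names, neighbours and promoter sequences. Krt19, the type I keratin that lacks most of the tail domain, had intensities with LIF of 274 and 239.6 for Rbp2f/f, but of 627.6 and 649.2 for Rbp2-/-. Without LIF Krt19 stood at 1431.5 and 2041.4 for Rbp2f/f, and at 1280.6 and 1325.2 for Rbp2-/-. The Rbp2-/- arrays were thus above the Rbp2f/f arrays with LIF and below them without LIF.

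Among the plaque proteins, the desmoplakin transcript Dsp had intensities with LIF of 673.7 and 237.5 for Rbp2f/f, and of 267.5 and 393.3 for Rbp2-/-. Without LIF Dsp stood at 1743.9 and 2472.7 for Rbp2f/f, and at 856.4 and 1507.4 for Rbp2-/-. The genotypes overlapped with LIF and were apart without it, with Rbp2f/f higher. Jup, which also serves adherens junctions, had Rbp2f/f intensities of 488.2 and 411.5 with LIF, and of 787.8 and 1042.5 after withdrawal. Its Rbp2-/- intensities were 729.2 and 368.6 with LIF, and 491.2 and 548.9 after withdrawal, so that its arrays overlapped between the media in that genotype only. Pkp2 had intensities with LIF of 596 and 443.3 for Rbp2f/f, and of 365.3 and 436.3 for Rbp2-/-. Without LIF Pkp2 stood at 507 and 655.5 for Rbp2f/f, and at 416.6 and 519.8 for Rbp2-/-. Its arrays overlapped between the media in both genotypes.

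Of the desmosomal cadherins, Dsg2 with LIF stood at 412.8 and 368.7 for Rbp2f/f, against 200.4 and 220.3 for Rbp2-/-, and after withdrawal at 547.4 and 755 against 218.4 and 411.7. The Rbp2-/- arrays were below the Rbp2f/f arrays in each medium. Dsc2 with LIF stood at 52.6 and 42.8 for Rbp2f/f, against 49.3 and 69.1 for Rbp2-/-, and after withdrawal at 363.9 and 488.8 against 99.1 and 166.6. It was low and overlapping between genotypes with LIF, and apart without it. Because these are bulk cultures, fewer cells of a type and less RNA per cell cannot be told apart in any of these values.

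**Figure D1:**
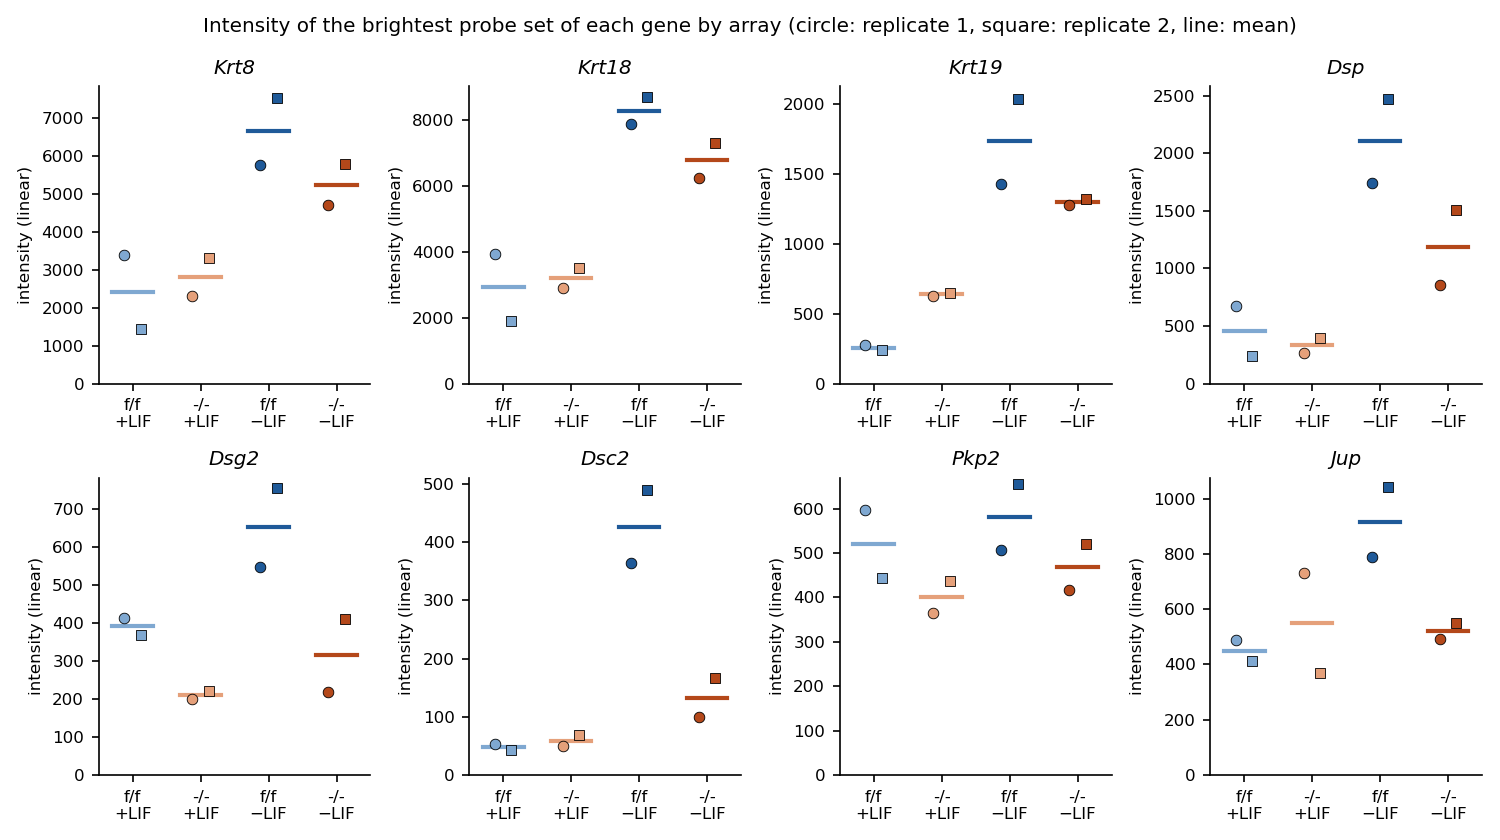
Intensity on a linear scale of the brightest probe set of each of the 8 genes on each of the 8 arrays, by genotype (f/f or -/-) and medium (+LIF, or −LIF for 6 days), with the mean of 2 arrays as a line. Krt8, Krt18, Krt19, Dsp and Dsc2 are higher on every array without LIF than on every array with it, and Krt19 alone separates the genotypes in opposite directions in the 2 media.

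On withdrawal of LIF from Rbp2f/f cells 6 of the 8 members rose, against 13.4% of all tested genes called higher in that comparison (limma, adjusted p under 0.05). Dsc2 rose 8.94-fold on the mean intensities, with a log2 difference of 2.72 ± 0.29 (adjusted p = 2.8e-05). Krt19 rose 6.76-fold (2.60 ± 0.26, adjusted p = 2.1e-05) and Dsp 4.63-fold (2.26 ± 0.41, adjusted p = 0.0012). Krt18 and Krt8 rose nearly alike, 2.84-fold (1.52 ± 0.26, adjusted p = 0.00068) and 2.75-fold (1.5 ± 0.31, adjusted p = 0.0028). Jup rose 2.03-fold (0.92 ± 0.31, adjusted p = 0.037). Dsg2, at 0.63 ± 0.31 (adjusted p = 0.13), and Pkp2, at 0.09 ± 0.28 (adjusted p = 0.73), did not pass. The median of the 8 was 1.51, and all except Pkp2 were higher without overlap of the arrays, against 38.5% of all genes. After quantile normalization the same count of 6 passed, against 14.2% of all genes. The Jup call was lost when any 1 of the 4 Rbp2f/f arrays was left out (adjusted p from 0.075 to 0.31), with no filter on dim genes (0.076) and with every probe set tested separately (0.056), and the other 5 passed under all 20 alternatives.

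In Rbp2-/- cells, 5 members rose on withdrawal on the values as deposited, against 19.7% of all genes. Dsp had a log2 difference of 1.37 ± 0.41 (adjusted p = 0.0075), Krt18 of 0.69 ± 0.26 (adjusted p = 0.0091), Krt19 of 0.62 ± 0.26 (adjusted p = 0.012), Dsc2 of 0.57 ± 0.29 (adjusted p = 0.029) and Krt8 of 0.53 ± 0.31 (adjusted p = 0.046). On the mean intensities these were folds of 3.58 for Dsp, 2.11 for Krt18, 2.04 for Krt19, 2.24 for Dsc2 and 1.87 for Krt8. Dsg2 (0.10 ± 0.31), Pkp2 (-0.17 ± 0.28) and Jup (-0.39 ± 0.31) did not pass, with adjusted p of 0.27 to 1.00. The median of the 8 was 0.55, and 5 were higher without overlap, against 51.9% of all genes. After quantile normalization limma called 0 of the 8, against 7.5% of all genes, with 3 at an unadjusted p under 0.05 and adjusted p of 0.079 for Dsp, 0.084 for Krt19, 0.096 for Krt18, 0.23 for Dsc2 and 0.28 for Krt8. With each array left out in turn, the log2 difference ranged from 0.91 to 1.85 for Dsp, 0.36 to 1.03 for Krt18 and 0.40 to 0.86 for Krt19. It ranged from 0.18 to 0.97 for Dsc2 and from 0.07 to 1.00 for Krt8.

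The difference between these withdrawal effects, Rbp2-/- minus Rbp2f/f, was below the all-gene median for all 8 members but passed for 0 of them, as for 0% of all genes (limma, 3 of the 8 at an unadjusted p under 0.05). Its value was -2.13 ± 0.41 for Dsc2 and -1.96 ± 0.36 for Krt19 (adjusted p = 0.25 for both), -1.30 ± 0.44 for Jup (adjusted p = 0.42), -0.96 ± 0.44 for Krt8, -0.87 ± 0.58 for Dsp, -0.82 ± 0.37 for Krt18, -0.52 ± 0.44 for Dsg2 and -0.26 ± 0.39 for Pkp2. Of the 10916 differences, 0.202% lay at or below that of Dsc2 and 0.33% at or below that of Krt19. With each array left out in turn, the value ranged from -2.53 to -1.73 for Dsc2 and from -2.20 to -1.72 for Krt19.

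**Figure D2:**
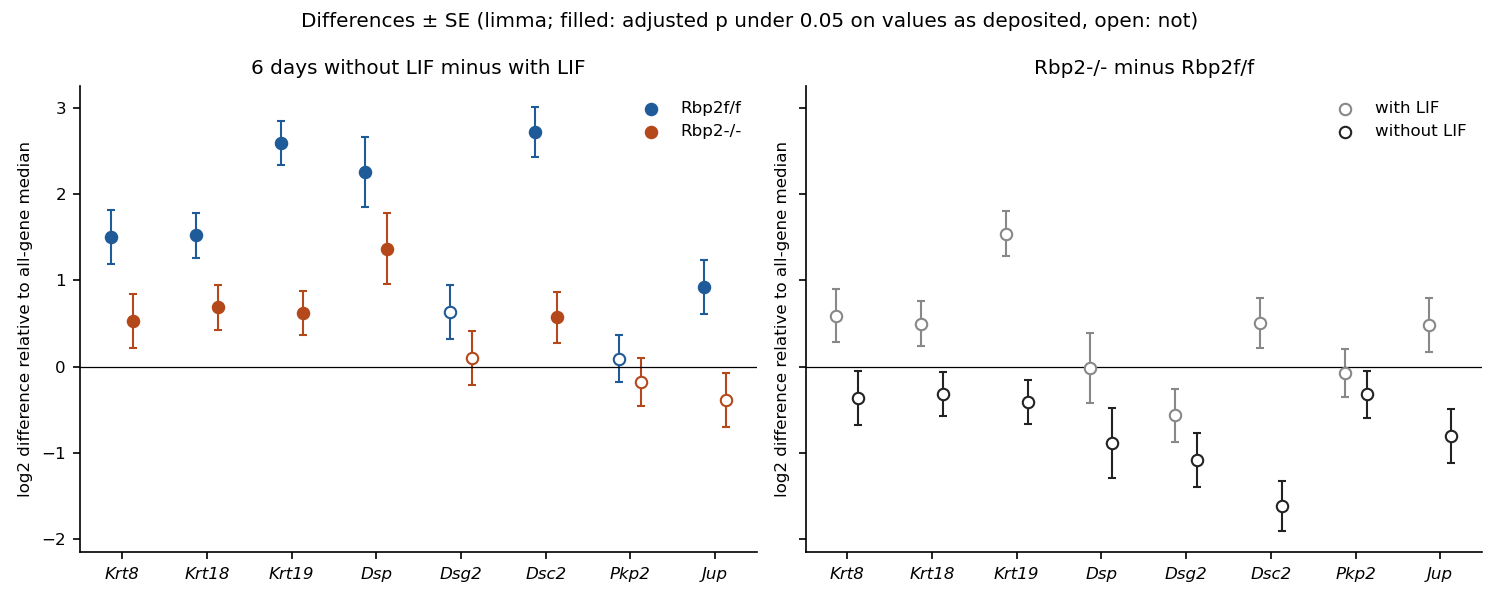
Log2 differences of the 8 genes relative to the all-gene median with the SE of the limma fit, for LIF withdrawal in each genotype (left) and for Rbp2-/- minus Rbp2f/f in each medium (right). Filled points pass an adjusted p of 0.05 on the values as deposited, 6 in Rbp2f/f and 5 in Rbp2-/- on the left, the latter becoming 0 after quantile normalization, and 0 on the right.

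Without LIF, all 8 members lay below the all-gene median in Rbp2-/- relative to Rbp2f/f cells, with a median of -0.61, and 0 of 8 passed, against 0.0183% of all genes called higher and 0.00916% called lower (limma). At an unadjusted p under 0.05 there were 3, namely Dsc2, Dsg2 and Jup. Dsc2 in Rbp2-/- was at 31.2% of its Rbp2f/f mean, a log2 difference of -1.62 ± 0.29 (adjusted p = 0.080). Dsg2 was at 48.4% (-1.08 ± 0.31, adjusted p = 0.20), Dsp at 56.1% (-0.88 ± 0.41, adjusted p = 0.50) and Jup at 56.8% (-0.81 ± 0.31, adjusted p = 0.39). The keratins differed less, with Krt19 at 75.0% (-0.41 ± 0.26), Krt8 at 78.8% (-0.36 ± 0.31) and Krt18 at 81.8% (-0.31 ± 0.26), as did Pkp2 at 80.6% (-0.32 ± 0.28), and their adjusted p were 0.70 to 0.80. At the brightest probe sets the arrays of the genotypes did not overlap for 6 of the 8, against 23% of all genes that were lower without overlap. Krt8 and Pkp2 were the exceptions, but the dimmer probe sets of Krt8 were lower in Rbp2-/- without overlap. Replicate 2 was the higher Rbp2-/- array for all 8, and for Krt8 it read 5781.5 against 5774 in replicate 1 of Rbp2f/f. The Dsc2 difference passed when replicate 1 of the withdrawn Rbp2f/f cells was left out (adjusted p = 0.035), and when replicate 2 of the withdrawn Rbp2-/- cells was (adjusted p = 0.012). Over all 20 alternatives its adjusted p ranged from 0.0069 to 0.91.

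With LIF the members were divided, 5 above and 3 below the all-gene median in Rbp2-/- relative to Rbp2f/f, and 0 passed, against 0.0641% of all genes called higher and 0.192% called lower (limma, 2 of the 8 at an unadjusted p under 0.05). Krt19 in Rbp2-/- was at 249% of its Rbp2f/f mean, with a log2 difference of 1.54 ± 0.26 (adjusted p = 0.060; 0.078 after quantile normalization). Read at the brightest probe sets, it was the only 1 of the 8 to be higher without overlap, which 4.42% of all genes were. Krt8 (0.59 ± 0.31), Dsc2 (0.51 ± 0.29), Krt18 (0.50 ± 0.26) and Jup (0.49 ± 0.31) had adjusted p of 0.61 to 0.75. Dsg2 was at 53.8% of its Rbp2f/f mean (-0.57 ± 0.31, adjusted p = 0.21). It and Pkp2 (-0.07 ± 0.28) were lower without overlap, as were 39.2% of all genes in this comparison with its dim array. Dsp, at -0.02 ± 0.41, changed sign under 7 of 20 alternatives. With each array left out in turn, the Krt19 difference ranged from 1.32 to 1.78, and over all 20 alternatives from 1.27 to 1.78.

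**Figure D3:**
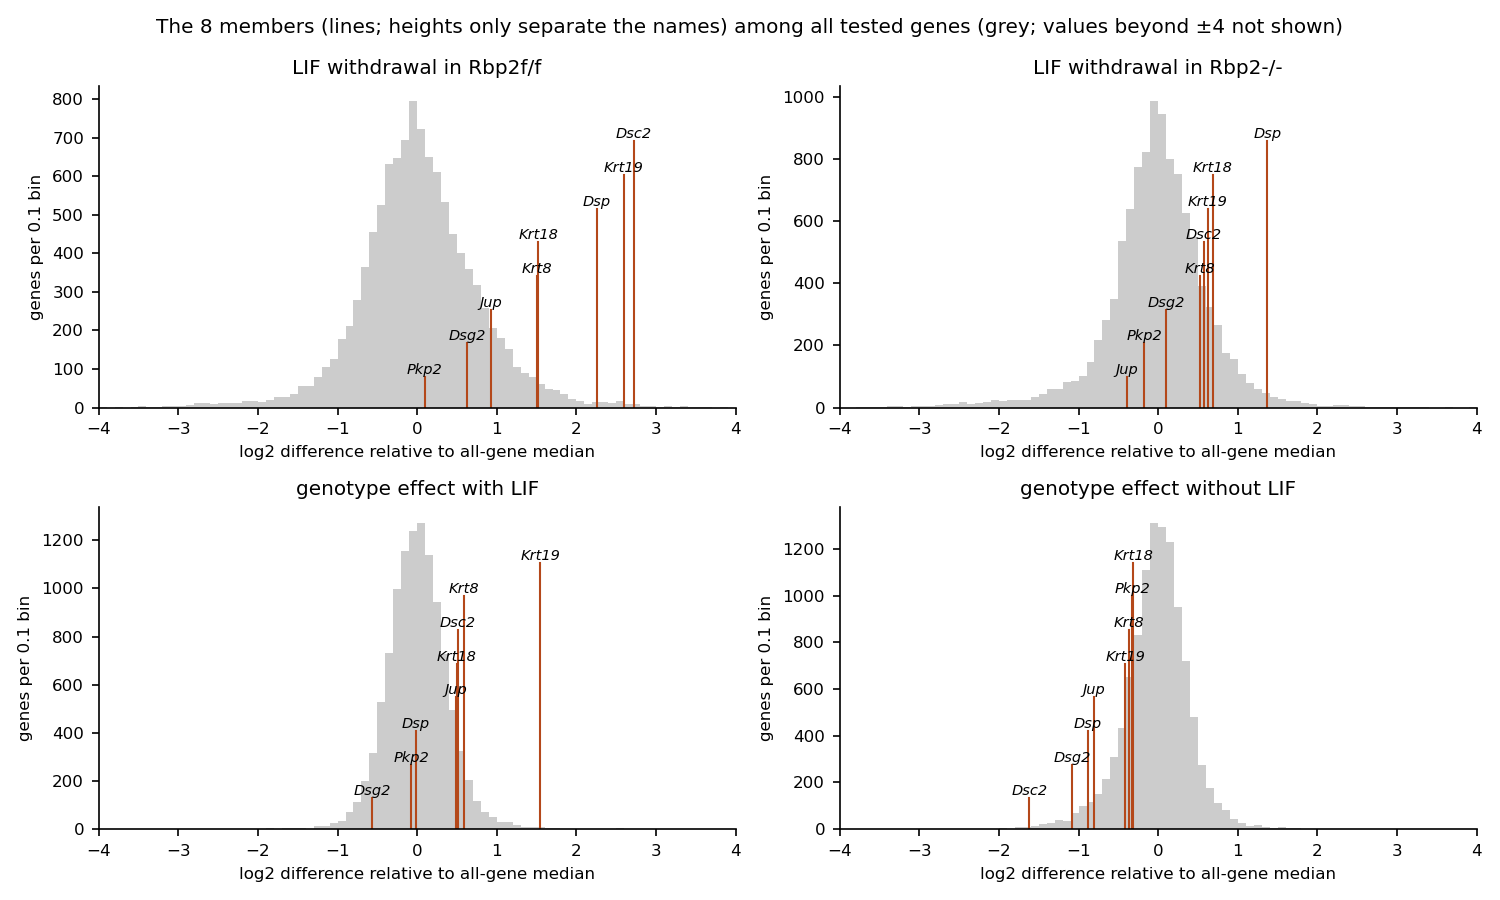
Number of tested genes per bin of 0.1 in the log2 difference relative to the all-gene median (grey, 10916 genes) in 4 comparisons, with a line at the value of each of the 8 genes. Dsc2 is at 2.72 and Krt19 at 2.60 on LIF withdrawal in Rbp2f/f, and all 8 lie below 0 for the genotypes without LIF.

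The 21 probe sets allowed the genes to be read more than once. The 3 of Krt8 gave withdrawal folds of 2.75 to 3.18 in Rbp2f/f and 1.87 to 2.45 in Rbp2-/-, and left 74.8% to 78.8% of the Rbp2f/f signal in Rbp2-/- without LIF. Of these, 2 are of the type whose probes may be shared with related sequences, so their signal may include other keratins. The 2 of Dsc2 left 31.2% and 56.7% without LIF. Of the 3 of Dsp, 2 left 56.1% and 56.4%, and the dimmest, at 3.2 to 46.5 with LIF, left 101%. For Dsg2, 5 of 6 probe sets left 37.0% to 64.2% without LIF and the sixth, at 2.8 to 18.2 on every array, left 130%. The 4 of Pkp2 left 80.6% to 112%. Krt18, Krt19 and Jup had 1 probe set each. That of Jup and the brightest of Dsg2 and of Pkp2 are of a type whose probes may match more than 1 transcript. Of the 21, 19 entered a fit of 20980 named probe sets. Without LIF 13 of these 19 were lower in Rbp2-/- with no overlap of the arrays, against 20.5% of the 20980, and 0 were higher. With LIF 4 were lower, against 36.4%, and 2 higher, against 5.12%. On withdrawal 16 were higher without overlap in Rbp2f/f, against 35.6%, and 11 in Rbp2-/-, against 51.7%. With every probe set tested, 10 passed as higher in Rbp2f/f and 8 in Rbp2-/-, against 9.74% and 14.5% (limma). Probe sets of a gene share its RNA and are not replicates.

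**Figure D4:**
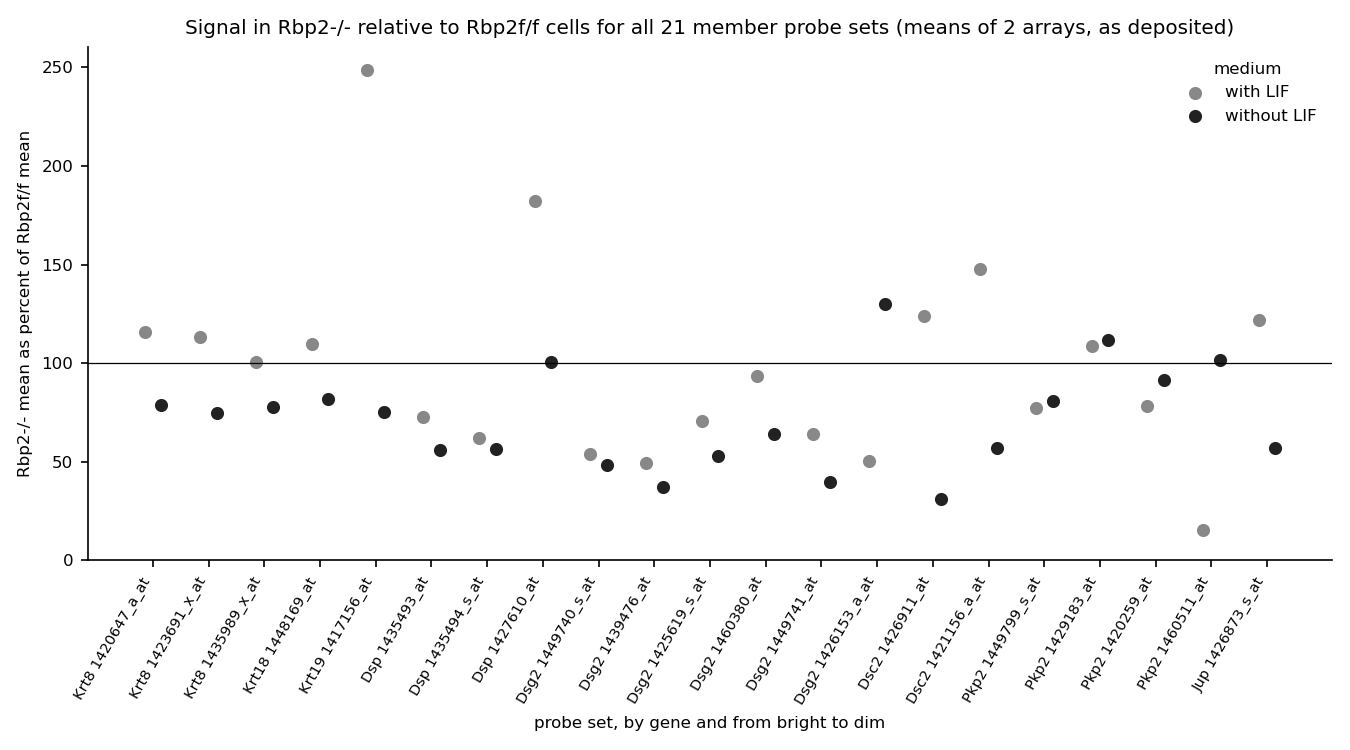
Mean signal of 2 Rbp2-/- arrays as a percentage of the mean of 2 Rbp2f/f arrays for each of the 21 probe sets, with LIF (grey) and without LIF (black). Without LIF the probe sets of Krt8, Krt18, Krt19, Dsc2 and Jup are all below 100%, and the points at or above it are 1 probe set each of Dsp and Dsg2 and 2 of Pkp2.

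The members also differed between replicates of a group in the same sense. In Rbp2f/f with LIF all 8 were higher in replicate 1, as were 53.7% of all genes, with Dsp differing by 2.84-fold, Krt8 by 2.36-fold and Krt18 by 2.06-fold, against 1.14-fold for Krt19. In Rbp2f/f without LIF all 8 were higher in replicate 2, as were 53.0% of all genes. In Rbp2-/- without LIF all 8 were again higher in replicate 2 (66.2% of all genes), by 1.89-fold for Dsg2, 1.76-fold for Dsp and 1.68-fold for Dsc2 and by 1.03-fold for Krt19. In Rbp2-/- with LIF 7 of 8 were higher in the dim replicate 2, as were 17.4% of all genes, and Jup was 1.98-fold higher in replicate 1. Summed over the pluripotency markers, intensity in that group was 11207.7 in replicate 1 and 5499.5 in replicate 2, against 10522.7 and 11090.3 for Rbp2f/f cells in LIF. Its part in the keratin and desmosome values was not tested. After quantile normalization the profile of Krt8 over the 8 arrays correlated with that of Krt18 at 0.99 and with that of Dsp at 0.95. The lowest correlation was that of Krt19 with Pkp2, at 0.16. These correlations describe 8 arrays in 4 groups, and the arrays are shared.

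RefSeq promoter windows of GRCm38.p6 were found for 4 of the 8 members, Krt8, Krt18, Dsp and Jup. These were called higher on withdrawal in Rbp2f/f, and their sequences are shown to set the neighbouring keratin genes beside the plaque genes. The 250 bases before the annotated start site are at chr15:102004343-102004592 (minus strand) for Krt8, chr15:102027966-102028215 (plus) for Krt18, chr13:38151044-38151293 (plus) for Dsp and chr11:100397791-100398040 (minus) for Jup. Each is written 5′ to 3′ in the direction of transcription, and capitals mark a match to any of the motifs searched.
Krt8: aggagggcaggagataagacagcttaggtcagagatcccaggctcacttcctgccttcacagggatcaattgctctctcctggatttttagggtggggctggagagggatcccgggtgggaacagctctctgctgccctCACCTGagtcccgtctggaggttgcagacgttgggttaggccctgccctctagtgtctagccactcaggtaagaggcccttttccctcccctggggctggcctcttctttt
Krt18: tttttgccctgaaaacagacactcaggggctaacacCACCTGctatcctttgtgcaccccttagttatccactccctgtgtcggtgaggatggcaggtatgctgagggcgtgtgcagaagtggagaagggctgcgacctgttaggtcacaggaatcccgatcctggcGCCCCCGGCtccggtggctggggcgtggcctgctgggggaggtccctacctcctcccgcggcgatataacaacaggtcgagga
Dsp: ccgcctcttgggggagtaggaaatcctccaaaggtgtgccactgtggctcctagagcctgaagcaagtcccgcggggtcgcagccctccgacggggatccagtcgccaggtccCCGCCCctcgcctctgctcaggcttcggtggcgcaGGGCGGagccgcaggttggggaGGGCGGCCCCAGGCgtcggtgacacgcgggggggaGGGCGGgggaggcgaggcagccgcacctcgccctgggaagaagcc
Jup: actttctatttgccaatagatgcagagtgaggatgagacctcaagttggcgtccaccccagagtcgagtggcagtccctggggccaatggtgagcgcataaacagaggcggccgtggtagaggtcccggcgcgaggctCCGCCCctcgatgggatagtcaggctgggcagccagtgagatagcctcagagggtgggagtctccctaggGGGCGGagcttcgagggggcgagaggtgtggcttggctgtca
Motifs were searched on both strands in all 32851 windows of the table. CCGCCC, a GC-rich element, matched 4 times in Dsp and 2 times in Jup and not in the keratin windows, and 32.7% of all windows hold it. CACCTG, the E-box of the Snail and Zeb repressors, matched once each in Krt8, 111 bases before the start, and in Krt18, 214 bases before it, and 17.2% of windows hold it. GCCNNNGGC, an AP-2 element, matched once each in Krt18 and Dsp (13.7% of windows), in Dsp overlapping a CCGCCC match. TATAAA (12.4%), TGANTCA of AP-1 (6.75%), AACCNGTT of Grainyhead factors (1.79%) and TGACGTCA of CREB (1.55%) matched in none of the 4. The Krt8 window held 3 CpG dinucleotides, Krt18 12, Jup 13 and Dsp 22, where the median window holds 6. A match is a description of the letters and no evidence of binding.

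Other genes of the same structures were read from fixed lists. Of 16 other desmosome and cytolinker genes, 13 were on the array and 8 were tested. On withdrawal in Rbp2f/f 4 of them rose and 0 fell (median 0.54), against 13.4% and 6.97% of all genes. These were Perp, a tetraspan protein needed for desmosome assembly (1.5 ± 0.33), Eppk1 (epiplakin, 1.35 ± 0.36), Plec (plectin, a cytolinker, 0.93 ± 0.28) and Ppl (periplakin, 0.89 ± 0.28), with limma adjusted p of 0.0045, 0.013, 0.023 and 0.024. After quantile normalization Eppk1 missed the threshold (adjusted p = 0.061) and Pkp4, a plakophilin relative, passed as lower (-0.99 as deposited; adjusted p = 0.060, and 0.014 after normalization). In Rbp2-/- 0 of the 8 passed (median -0.10). Between genotypes without LIF 7 of 8 lay below the all-gene median (median -0.66), with Eppk1 at -1.38, Perp at -1.33 and Ppl at -1.13, and 0 passed. With LIF 0 passed (median -0.29). The stratified-epithelium cadherins Dsg1a, Dsg1b, Dsc1 and Dsc3 and the plakophilin Pkp1 did not reach the level needed for testing.

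Of 14 other keratins 6 were tested, and 0 passed in any comparison on the values as deposited (limma). After quantile normalization Krt42 passed as lower on withdrawal in both genotypes (adjusted p = 0.041 in Rbp2f/f and 0.032 in Rbp2-/-), against 13.7% and 7.96% of all genes. Their medians were 0.01 for withdrawal in Rbp2f/f, -0.12 in Rbp2-/-, 0.26 for the genotypes with LIF and -0.06 without. Among 8 adherens junction genes, all tested, 3 rose in Rbp2f/f on withdrawal (median 0.28), against 13.4% of all genes. They were Vcl (vinculin, 1.17 ± 0.35), Ctnnd1 (p120 catenin, 1.04 ± 0.26) and Afdn (afadin, 0.79 ± 0.28), with adjusted p of 0.020, 0.0087 and 0.044. In Rbp2-/- 2 of the 8 rose as deposited (median 0.06), near the share of 19.7% of all genes. These were Ctnnd1 (0.54 ± 0.26, adjusted p = 0.021) and Ctnnb1 (beta-catenin, 0.22 ± 0.19, adjusted p = 0.033). Neither passed after quantile normalization (adjusted p = 0.077 and 0.092). Without LIF all 8 lay below the median between genotypes (list median -0.39) and 0 passed. With LIF 5 of the 8 lay below it (list median -0.17) and 0 passed. Cdh1 (E-cadherin) had means in Rbp2f/f of 2742.85 with LIF and 2744.3 without. In Rbp2-/- its means were 1220.9 and 1135.7. Of 5 tested hemidesmosome genes, Cd151 (a tetraspanin, 1.25 ± 0.30, adjusted p = 0.0067) and the integrin Itgb4 (0.98 ± 0.32, adjusted p = 0.032) rose in Rbp2f/f (list median 0.47), against 13.4% of all genes. After quantile normalization Itgb4 missed the threshold (adjusted p = 0.079). The count was 0 in Rbp2-/- (-0.08) and between genotypes without LIF (-0.61).

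Of 8 tested filament genes outside the keratins, 1 rose and 2 fell in Rbp2f/f on withdrawal, against 13.4% and 6.97% of all genes. The count of 1 is near that share. In Rbp2-/- 2 fell, against 3.33% of all genes. Vim (vimentin, the filament of mesenchymal cells) rose in Rbp2f/f by 1.71 ± 0.21 (adjusted p = 6.7e-05) and was higher in Rbp2-/- than in Rbp2f/f with LIF by 1.56 ± 0.21 (adjusted p = 0.022; 0.078 after quantile normalization). The neuronal filament gene Ina fell on withdrawal in both genotypes, by 2.7 ± 0.27 and 3.35 ± 0.27. Lmnb1, the nuclear lamin B1, fell in Rbp2f/f by 1.03 ± 0.24 (adjusted p = 0.010) and Nefl, a neurofilament gene, in Rbp2-/- by 1.70 ± 0.41 (adjusted p = 0.033). The list medians were -0.16 and -0.11 for withdrawal in Rbp2f/f and Rbp2-/-, and -0.05 and -0.12 for the genotypes with and without LIF.

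**Figure D5:**
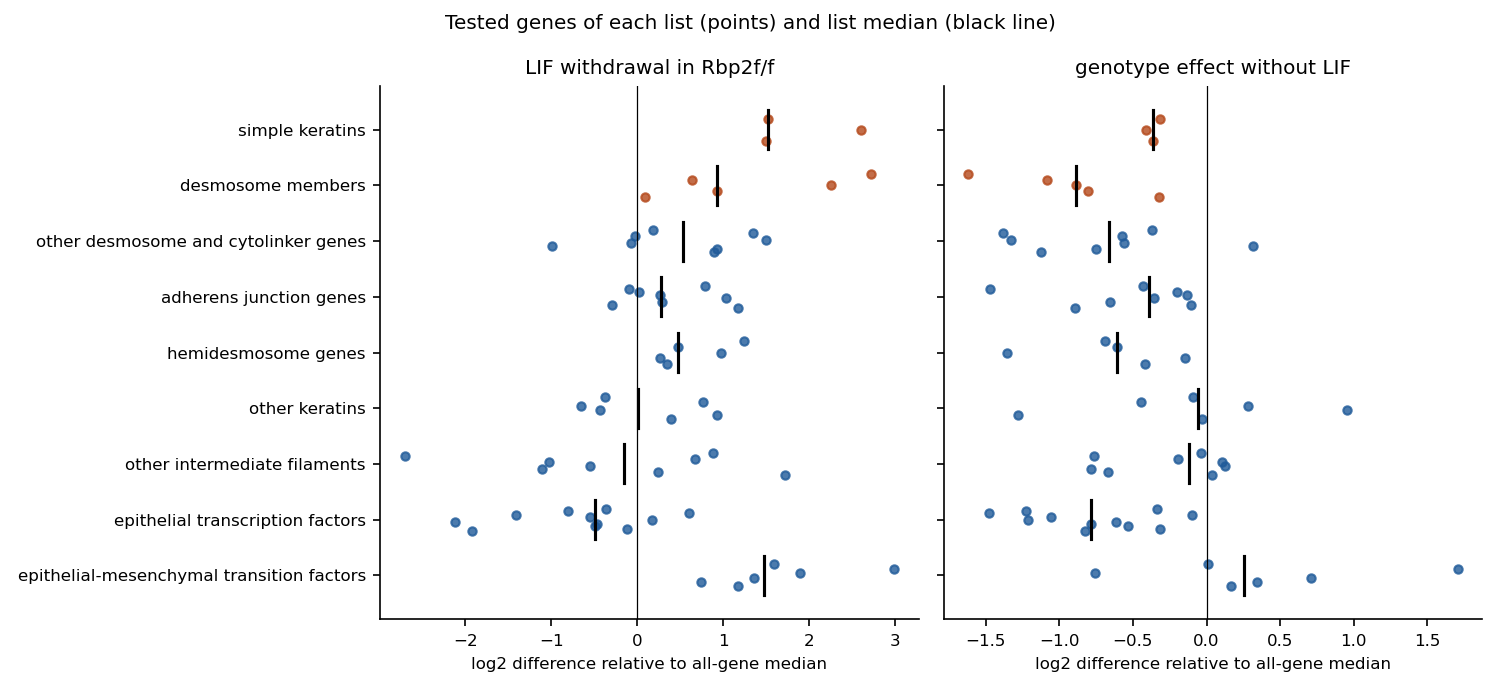
Log2 differences relative to the all-gene median of every tested gene in 9 lists (points) with the list median (black line), for LIF withdrawal in Rbp2f/f (left) and Rbp2-/- minus Rbp2f/f without LIF (right). The medians of the keratins and desmosome members are 1.52 and 0.92 on the left and -0.36 and -0.88 on the right.

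Of 11 tested epithelial transcription and splicing factors, 0 rose and 3 fell on withdrawal in Rbp2f/f (median -0.48), against 6.97% of all genes called lower. These were Klf4 (-2.11 ± 0.26), Tfap2c, an AP-2 factor (-1.92 ± 0.39), and Grhl1, a Grainyhead factor (-1.41 ± 0.30), with adjusted p of 0.00011, 0.0039 and 0.0058. Grhl1 reached the level for testing only through the arrays with LIF, so its call is no support. In Rbp2-/- 4 fell (median -1.03), against 3.33% of all genes, including Klf5 at -1.57 ± 0.28 (adjusted p = 0.0086). After quantile normalization 4 were called lower in Rbp2f/f, against 13.7% of all genes, and 7 in Rbp2-/-, against 7.96%. Between genotypes without LIF all 11 lay below the all-gene median (median -0.78) and 0 passed. With LIF 1 was lower, the splicing regulator Esrp1 (-1.49 ± 0.33, adjusted p = 0.041; 0.13 after quantile normalization), with a list median of -0.10. Of 6 factors of the epithelial-mesenchymal transition, 5 rose in each genotype on withdrawal (medians 1.47 and 1.22), against 13.4% and 19.7% of all genes. After quantile normalization 5 rose in Rbp2f/f and 3 in Rbp2-/-, against 14.2% and 7.5% of all genes. Snai2, a repressor of epithelial genes, rose by 2.99 ± 0.47 in Rbp2f/f and 4.32 ± 0.47 in Rbp2-/- (adjusted p = 0.00047 and 2.1e-05). It read 1.6 to 9.1 with LIF and reached the level for testing, a mean of 28.3, through the arrays without LIF, as did Zeb2. The calls of both genes, and the list counts that include them, are therefore no support. Snai1 rose by 1.59 ± 0.25 and 1.20 ± 0.25 (adjusted p = 0.00045 and 0.00073). Their genotype medians were 0.44 with LIF and 0.25 without, with 0 passing.

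Some markers of cell types in which these keratins are known also moved with withdrawal, and their part in the keratin and desmosome values was not tested. Trophoblast markers, 6 tested of 8 on the array, gave 4 higher in Rbp2f/f, against 13.4% of all genes, and 3 in Rbp2-/-, against 19.7%. Ascl2 went the other way without being called. Its mean moved on withdrawal from 73.4 to 36.2 in Rbp2f/f and from 69.1 to 5.1 in Rbp2-/-. Elf5 and Tpbpa were too dim to test, and in Rbp2f/f their means fell from 13.95 to 6.55 and from 9.9 to 1.9. The summed intensity of the 8 with LIF was 308.1 to 446.3 in Rbp2f/f and 355.1 to 815.3 in Rbp2-/-. Without LIF it was 1491.6 to 2027.4 and 3124.1 to 4140.7. Most of the latter was Hand1, and without that gene the sums lacking LIF were 916.4 to 1000.9 and 573.7 to 1255.6, so the genotypes overlapped. Of 10 extraembryonic endoderm markers 5 were tested and called higher in each genotype, or 4 in Rbp2-/- after quantile normalization (7.5% of all genes). Sox17 and Foxa2 among them reached the level for testing only through the arrays without LIF, as did Gata3 of the trophoblast list and Postn of the feeder list below, so these counts are no support. The other 5, Sox7, Afp, Ttr, Apoa1 and Amn, stayed under it. In Rbp2f/f the mean fell on withdrawal for Amn (47.15 to 13.55), Afp (6.1 to 1.75) and Sox7 (14.45 to 9.55). It rose for Ttr (2.65 to 17.4) and Apoa1 (2.2 to 11.65). The 10 had sums of 252.2 to 269.2 and 184.6 to 223.8 with LIF and 757 to 970.7 and 862.6 to 904.6 without. Between genotypes 0 passed in either list, with medians of 0.77 and 0.38 with LIF and 0.45 and -0.03 without.

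Surface ectoderm markers had 2 tested members and 3 that were too dim, including the basal keratins Krt5 and Krt14. In Rbp2f/f 0 passed on withdrawal (median 0.02), and in Rbp2-/- Grhl3 was lower (-1.48 ± 0.32, adjusted p = 0.024), against 3.33% of all genes. Their sums were 188.1 to 203.7 in Rbp2f/f and 92.5 to 169.9 in Rbp2-/- without LIF, against 193.2 to 202.4 and 194.0 to 205.9 with it. Of 3 tested cardiac muscle markers 1 was higher on withdrawal in each genotype, against 13.4% and 19.7% of all genes. These were Actc1 in Rbp2f/f and Myl4 in Rbp2-/-, the latter not after quantile normalization (adjusted p = 0.053). The cardiac sums were 234.0 to 312.1 and 332.4 to 360.3 without LIF and 133.9 to 220.5 and 233.0 to 268.6 with it. Feeder fibroblast markers gave 4 of 5 tested higher in Rbp2f/f (13.4% of all genes) and 2 in Rbp2-/- (19.7%). After quantile normalization these were 3 (14.2%) and 1 (7.5%). The sums of the feeder markers were 1439.7 to 1494.0 and 1278.3 to 3557.6 without LIF and 318.8 to 536.0 and 459.1 to 755.9 with it. Without Col1a1, which read 2811.2 on 1 array, the sums lacking LIF were 900.4 to 978.8 and 562.2 to 746.4. No marker of these lists was listed at 0 on any array.

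The tested genes whose profile over the 8 arrays was most like the mean standardised profile of the members, after quantile normalization, were Shisa5 (Pearson correlation 0.99), Anxa5, an annexin (0.99), Rragc, a Rag GTPase (0.99), Tgfbr2, a TGF-beta receptor (0.99), Mbd2, a methyl-CpG binding protein (0.98), and Adcy2, an adenylate cyclase (0.98). Anxa5 averaged 608 and 668 with LIF and 2144 and 1214 without it in Rbp2f/f and Rbp2-/-. They were picked as the highest of all tested genes, so the size of these correlations carries no test.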

How the data were processed

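RNA of mouse ES cells was hybridised to Affymetrix mouse genome arrays. The deposited intensities are on a linear scale, 1 per probe set, made by the authors; their software, background correction and scaling were not stated in any label or header used. They ran from 0 to 11476.5, with 39 values of 0.

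Of 45101 probe sets, 34958 had 1 gene symbol, 932 had several and 9211 had none, and those with 1 were used. A gene was read at its brightest probe set by mean over the 8 arrays (18194 genes), and genes at or above the 40th percentile of that mean were tested (10916). The 4 groups were compared on log2(intensity + 16) with limma 3.58.1 in R 4.3.3 (group means, eBayes with trend, 4 residual and 10.9 prior degrees of freedom). Tests were two-sided, with Benjamini-Hochberg adjustment over all tested genes and calls at an adjusted p under 0.05. An exact permutation test of 2 against 2 arrays cannot go below 0.333 and was not run. The number of arrays limits the precision. The scripts were tested on simulated data.

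The members, gene lists and tests were chosen with earlier results of these data known. Named genes were the members, Kdm5a, up to 4 called genes of each other list by smallest p, and the 6 genes most alike in profile. A few further list genes were chosen after their values were seen. Alternatives were quantile normalization, median centring, pseudocounts of 1 and 32, no filter or the 60th percentile, other summaries of probe sets, eBayes without trend, a block for the replicate number, and each array left out in turn. Quantile normalization with that block, or without the dim array, was added after seeing the data.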

Additional observations from a re-analysis of the deposited data

Results flagged for a closer look

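The genotype difference of Krt19 had opposite signs in the 2 media. Every Rbp2-/- array was above every Rbp2f/f array with LIF and below every one without it. The interaction was -1.96 relative to the all-gene median and did not pass (limma adjusted p = 0.25). Of the 8 members, each read at its brightest probe set, it alone met this condition. The dimmer probe set of Dsc2 met it too. That probe set read 59.3 and 54.1 for Rbp2-/- against 29.4 and 47.4 for Rbp2f/f with LIF. Without LIF it read 137 and 195.6 against 237.7 and 348.6. Groups of 2 arrays are too small for a check of single arrays that stand apart.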

How the results depend on the processing

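Counts of the 8 members called changed as follows. Withdrawal in Rbp2-/- called 5 as deposited, 0 after quantile normalization or median centring, 2 with no filter, 0 with quantile normalization and the replicate block together and 2 with quantile normalization without the dim array. Leaving out 1 array gave 0 to 5. Withdrawal in Rbp2f/f called 6, and 5, without Jup, with no filter or with every probe set tested separately, and 5 to 6 without 1 array. The genotype effect without LIF called 0, and 1 (Dsc2) with a pseudocount of 32, with the replicate block or with quantile normalization and the block, and 0 to 1 without 1 array. The genotype effect with LIF called 0, 1 (Krt19) with the replicate block and 0 to 1 without 1 array. The interaction called 0, and 0 to 2 without 1 array. When 1 array is left out, the lone array is assumed to vary like the other groups. The number of all genes called moved as well, so the member counts without 1 array do not speak of the members alone.

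The replicate numbers were not taken to pair the samples, since the labels give them no meaning and same-numbered arrays did not deviate together in every pair of groups: their deviations from the group means correlated at 0.25 to 0.26 in the 3 pairs without Rbp2f/f in LIF and at -0.08 to 0.002 in the 3 pairs with it. With the numbers as a block, adjusted p was 0.0069 for Dsc2 without LIF and 0.031 for Krt19 with LIF. As a block they moved the count of all genes called from 28 to 117 for the genotype effect with LIF, from 3 to 149 without LIF and from 0 to 10 for the interaction.

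Signs changed only for differences near 0. Dsp with LIF (-0.02) became 0.0315 after quantile normalization, alone or with the block, 0.0229 with a pseudocount of 1, 0.00300 with the filter at the 60th percentile, 0.15 as the mean of its probe sets, and -0.71 to 0.69 without 1 array. Dsg2 on withdrawal in Rbp2-/- (0.10) ranged from -0.28 to 0.47 without 1 array. Pkp2 ranged from -0.39 to 0.26 for the genotypes with LIF and -0.10 to 0.29 for withdrawal in Rbp2f/f, where the mean of its probe sets gave -0.0110. It ranged from -0.50 to 0.16 for withdrawal in Rbp2-/- and -0.58 to 0.0763 for the interaction, and quantile normalization without the dim array gave 0.19 and 0.0745. The cause of these changes was not tested.

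Over all genes, alternatives other than leaving out an array gave 0 to 117 calls for the genotype effect with LIF (28 as deposited), 0 to 149 without LIF (3) and 0 to 10 for the interaction (0). Without replicate 1 of the Rbp2-/- cells in LIF these were 2446, 1 and 1430. Withdrawal in Rbp2f/f called 1465 genes higher and 761 lower, and 1551 and 1500 after quantile normalization. In Rbp2-/- it called 2149 and 363, and 819 and 869 after quantile normalization.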
